A study of Mus musculus with 72 samples.

Results

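The 9 genes described here are the guanylate cyclase activators Guca1a and Guca1b together with 7 further neuronal calcium sensor genes, Hpca, Hpcal1, Hpcal4, Ncald, Ncs1, Vsnl1 and Rcvrn. They were taken by name from the 53715 gene rows of the count files. Guca1b was chosen because it was higher in every tissue of the knockout mice, and the other 8 genes, called its relatives below, were added to ask whether they followed. For Guca1a the question was not open in hippocampus, where the study had already reported a rise from these libraries. The 72 RNA-seq libraries came from 18 male C57BL/6J mice of 18 weeks. In the mutants an exon of Gnb5, the gene of the G protein subunit Gβ5, was deleted in the germline, on both alleles in Gnb5-/- and on a single allele in Gnb5+/- mice, so that the deletion was not limited to a cell type. Atria and ventricles, each taken whole from the left and right side, were sequenced in 6 Gnb5-/-, 6 Gnb5+/- and 6 Gnb5+/+ mice. Whole cerebellum, the hippocampi and whole cerebral cortex were sequenced in the Gnb5-/- and Gnb5+/+ mice, which gave 12 groups of 6 libraries.

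Neuronal calcium sensors are small proteins with EF-hand motifs that bind calcium and then alter the activity of a partner protein. Most carry a fatty acid, attached to the glycine that follows the first methionine, which anchors the protein to membranes. Guca1a and Guca1b encode GCAP1 and GCAP2, which stimulate the membrane guanylate cyclases of retinal photoreceptors when calcium falls, and Rcvrn encodes recoverin, which takes part in light adaptation in the same cells. Hpca (hippocalcin), Hpcal1, Hpcal4, Ncald (neurocalcin delta) and Vsnl1 (visinin-like 1) are best known from brain neurons, and Ncs1 (frequenin) is present in neurons and heart muscle, where it binds a phosphatidylinositol 4-kinase and potassium channels.

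The start of the coding sequence showed the feature that all members share. The first 30 coding bases of each gene are given with the start codon and the second codon in capitals. The transcripts were those of GENCODE M21.
Guca1a: ATGGGCaacatcatggagggcaagtccgtg
Guca1b: ATGGGGcagcagctgagctgggaagaggcg
Hpca: ATGGGCaagcagaacagcaagctgcggcca
Hpcal1: ATGGGCaagcagaacagcaagctgcgtcct
Hpcal4: ATGGGGaaaaacaacagcaagctggccccc
Ncald: ATGGGGaaacagaacagcaagctgcgccct
Ncs1: ATGGGGaaatccaacagcaagttgaagcct
Vsnl1: ATGGGGaaacagaatagcaaactggcccca
Rcvrn: ATGGGGaacagcaagagcggtgccctgtcc
A glycine codon stood second in all 9 genes. The coding sequences were of like length, from 573 bases (Ncs1) to 609 bases (Guca1a and Rcvrn), and Guca1b had 606. Hpca and Hpcal1 were the closest pair, with 86.1% identical bases over 582 aligned positions, followed by Hpcal4 and Vsnl1 with 82.1%. The paralogs Guca1a and Guca1b shared 64.6% of 565 aligned bases.

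Guca1b and Guca1a are neighbours. On GRCm38, Guca1b lies on the forward strand of chromosome 17 from 47385393 to 47392967 and Guca1a on the reverse strand from 47394558 to 47400584. Their 3′ ends face each other across 1590 bases, and neither overlaps another annotated gene. The other members are spread over the genome. Hpca (129111570 to 129122036) and Hpcal4 (123183227 to 123194701) are on chromosome 4, and Hpcal1 (17690856 to 17791933) and Vsnl1 (11325242 to 11436613) on chromosome 12. Ncald is on chromosome 15 (37366175 to 37792570), Ncs1 on chromosome 2 (31245823 to 31295989) and Rcvrn on chromosome 11 (67695326 to 67703333). Rcvrn sits inside the span of Glp2r, on the opposite strand and without touching its exons. The end of Hpca overlaps that of Tmem54 on the opposite strand, which never reached more than 22 counts in a library, and Ncald spans 11 small or weakly counted genes, none above 25 counts. The strand setting of the counting was not given in the sources used here.

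Between 29204390 and 48807435 reads were counted on genes per library. The Gnb5 counts followed the labels: the mean level in Gnb5-/- mice was 0.0509 to 0.139 times that of Gnb5+/+ mice in the 5 tissues, and in Gnb5+/- heart it was 0.519 to 0.523 times. Heart muscle markers (Myh6, Actn2, Tnnt2, Tnni3 and Ryr2) and neuron markers (Rbfox3, Snap25, Syt1, Syn1 and Stmn2) marked the heart and brain libraries as labelled. In 2 Gnb5-/- libraries the pattern of expression stood apart from the rest of the group, namely cortex replicate 3 (median correlation 0.897 with the other 5) and cerebellum replicate 2 (0.917), whereas the others lay between 0.958 and 0.991. Cortex replicate 3 and cerebellum replicate 2 were both high in the summed neuron markers. Their level was 6032 CPM, the count scaled to the library's TMM-normalized total, in that cortex library against 4245 to 4751 in the other cortex libraries, and 4996 against 3633 to 4121 in cerebellum. The cortex library also held 519 CPM of cerebellum markers (Pcp2, Cbln1, Gabra6, Calb1 and Zic1), against 161 to 285 in the other cortex libraries. It was high in atrial markers (Nppa, Myl7, Sln and Myl4) too, with 86.5 CPM against 6.72 to 13.7. In the heart muscle markers it was low, with 120 CPM against 159 to 421. The cerebellum library held 890 CPM of choroid plexus markers (Ttr, Kl, Folr1, Slc4a5 and Aqp1), against 4.45 to 11.1 in the other cerebellum libraries. High sums of this list also occurred in libraries that did not stand apart, up to 709 CPM in Gnb5-/- cortex and 1516 CPM in Gnb5+/+ hippocampus. The cerebellum library was low in markers of hippocampus (60.6 against 109 to 151 CPM), cortex (35.4 against 56.2 to 70.1) and heart muscle (103 against 304 to 385). The part of these differences in the results below was not tested, and fold changes of the members without these libraries are given beside the results they touch.

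In the Gnb5+/+ mice 7 of the 9 members were higher in each brain region than in heart, whereas Guca1b was low in all tissues and Guca1a was highest in atria. Levels are given here as CPM per kilobase of exon, as mean ± SD of 6 mice. The length is that of all annotated exons of a gene, used in these tissues or not, so rankings between genes depend on it. Tissues were compared with edgeR's quasi-likelihood test with each mouse as a block. Hpca was highest in hippocampus (282 ± 29), lower in cortex (92.7 ± 10.1) and cerebellum (11.5 ± 1.42), and near 0 in atria (0.226 ± 0.053) and ventricles (0.0709 ± 0.078). Its libraries did not overlap between the 3 brain regions, and all 4 steps of this order passed the test. Hpcal1, the gene closest to Hpca in sequence, had another order. It led in cerebellum (126 ± 6.81), followed by cortex (23.7 ± 3.05), hippocampus (17.6 ± 1.86), ventricles (7.89 ± 0.685) and atria (7.68 ± 1.05), and only the 2 heart tissues could not be separated (log2 difference 0.04, 95% interval -0.16 to 0.24).

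Hpcal4 was about as high in cortex (186 ± 12.5) as in hippocampus (171 ± 4.11), with a log2 difference of 0.12 (-0.44 to 0.68), and far lower in cerebellum (5.71 ± 0.877). Ncald likewise did not separate cortex (51 ± 2.76) from hippocampus (47.8 ± 2.45), with a log2 difference of 0.10 (-0.10 to 0.29), and was lower in cerebellum (18.7 ± 1.31). Ncs1 was higher in hippocampus (73.2 ± 3.14) than in cortex (59.7 ± 2.12) by 0.29 on the log2 scale (0.13 to 0.45, adjusted p = 0.00384). The libraries of these 2 regions did not overlap for Ncs1. Vsnl1 was high in all of cortex (172 ± 7.86), cerebellum (149 ± 6.96) and hippocampus (140 ± 5.06), and no pair of these regions passed the test, although the cortex libraries (159 to 180) lay above the cerebellum libraries (139 to 156). Rcvrn stayed below 1 CPM per kilobase in every library, with 0.425 ± 0.15 in hippocampus, 0.379 ± 0.108 in cortex and 0.143 ± 0.0579 in cerebellum. In both heart tissues it had a single count in 1 of 6 libraries and none in the others, and a count of 0 allows up to 3 counts.

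**Figure D1:**
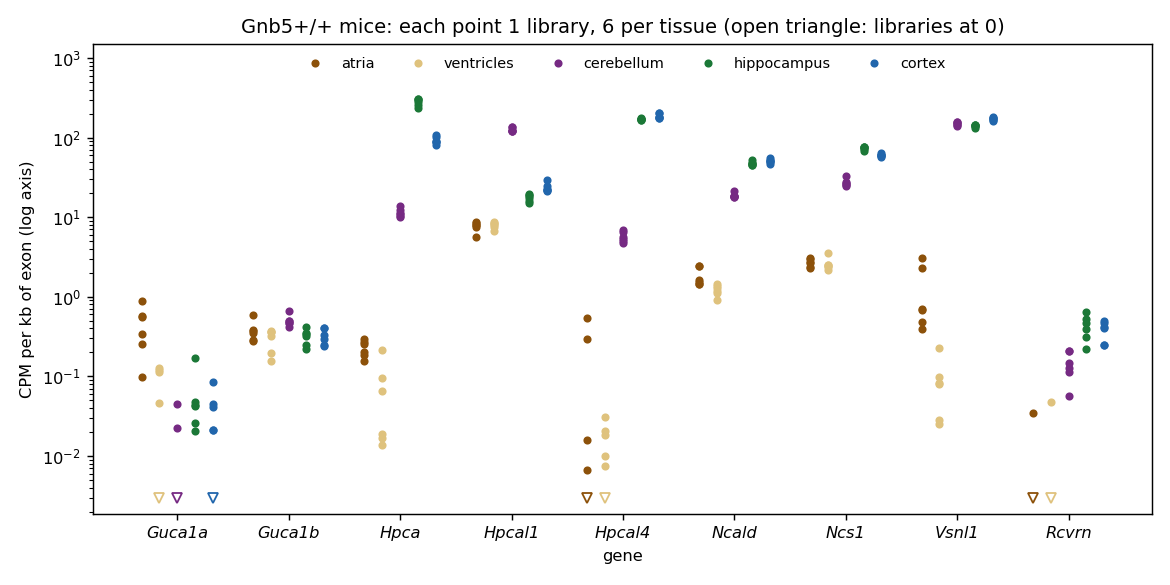
Level of the 9 members in Gnb5+/+ mice, in CPM per kilobase of exon on a log axis, with 1 point per library, 6 libraries per tissue and colours for tissues; open triangles at the bottom edge mark groups with libraries at 0. Hpca, Hpcal4 and Vsnl1 reach more than 100 CPM per kilobase in hippocampus or cortex, whereas Guca1b lies between 0.158 and 0.667 in all 30 libraries.

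Guca1b differed from its relatives in having nearly the same low level everywhere. Its mean was 0.499 ± 0.087 CPM per kilobase in cerebellum, 0.376 ± 0.115 in atria, 0.321 ± 0.074 in cortex, 0.318 ± 0.0731 in hippocampus and 0.296 ± 0.0949 in ventricles. Cerebellum was higher than each of the other 4 tissues (log2 differences 0.43 to 0.73, adjusted p 0.000746 to 0.0237), and no other pair of tissues passed the test. Guca1a was highest in atria (0.451 ± 0.283) and at most 0.0676 ± 0.0599 elsewhere, too low for the filter of this fit. In heart the leading member was Hpcal1, with 52.4% of the summed level of the family in atria and 64.4% in ventricles. The leading members were Vsnl1 in cerebellum (43.9%), Hpca in hippocampus (38.5%) and Hpcal4 in cortex (31.8%). In CPM not divided by length, Ncald (15.6) was above Hpcal1 (13) in atria and Hpcal4 (912) above Hpca (825) in hippocampus. The leading member was the same on both scales in ventricles, cerebellum and cortex. Guca1b made up 2.56% of the family in atria and 2.41% in ventricles, but 0.147% or less in the brain regions.

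Most genes differed between tissues, and the members' counts are to be read against that. Of the 8 members tested, 4 were called, that is had an adjusted p below 0.05, between atria and ventricles (53.6% of all genes were called) and 3 between hippocampus and cortex (37.7% of all genes). Between cerebellum and hippocampus (70.8% of all genes) and between cerebellum and cortex (71.8%), 7 of 8 were called. Between heart and brain tissues 7 or 8 of 8 were called. The background was 87.3%, 87.6% and 88.1% for atria against cerebellum, hippocampus and cortex. For ventricles against the same regions it was 87.3%, 87.8% and 88.3%. The genes called between atria and ventricles, all higher in atria, were Vsnl1 (log2 difference 3.72, adjusted p = 1.92e-06), Hpcal4 (3.24, adjusted p = 0.0129), Hpca (1.75, adjusted p = 0.000201) and Ncald (0.56, adjusted p = 0.00011). Hpcal4 in atria rested on 2 of 6 libraries, with 2.42 and 1.31 CPM on the atrial scale against at most 0.0737 in the other 4.

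In the Gnb5-/- mice Guca1b was higher than in Gnb5+/+ mice in all 5 tissues. These differences are what the gene was chosen by, so they are given as a description without a test. From here on, levels are CPM normalized within each tissue. In cerebellum the lowest, median and highest Gnb5+/+ libraries had 1.31, 1.52 and 2.12 CPM, and the Gnb5-/- libraries 19.9, 21.2 and 42.4 CPM. In hippocampus the Gnb5+/+ libraries had 0.672, 0.996 and 1.27 CPM and the Gnb5-/- libraries 10.8, 11.6 and 12.6 CPM. In cortex the values were 0.756, 0.962 and 1.27 CPM against 13.5, 15.3 and 50.1 CPM. No Gnb5-/- library of a brain region came near the Gnb5+/+ range, and the hippocampus libraries were closely grouped, with an SD of 0.713 CPM around a mean of 11.6.

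The heart libraries lay closer together. In atria the lowest, median and highest Gnb5+/+ libraries had 0.566, 0.737 and 1.2 CPM and the Gnb5-/- libraries 1.64, 2.21 and 2.97 CPM. In ventricles these values were 0.24, 0.498 and 0.552 CPM against 0.793, 1.08 and 1.56 CPM. The groups did not overlap in either tissue. The log2 fold change was 1.55 (95% interval 1.13 to 1.98) in atria and 1.36 (0.83 to 1.90) in ventricles. In the brain it was 3.96 (3.49 to 4.43) in cerebellum, 3.60 (3.34 to 3.87) in hippocampus and 4.43 (3.62 to 5.23) in cortex. The mean was thus 2.95 and 2.6 times the Gnb5+/+ mean in atria and ventricles, and 15.6, 12.1 and 21.6 times in cerebellum, hippocampus and cortex. The 2 libraries that stood apart held the highest values of their groups, 42.4 CPM in cerebellum and 50.1 CPM in cortex, and without them the log2 fold change was 3.73 in cerebellum and 3.99 in cortex. Cortex replicate 5, with the next highest value (20.9 CPM) and also few reads without a feature, stayed in the cortex fit. In these whole-tissue samples, more cells that express a gene and more of its RNA per cell cannot be told apart.

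The gene remained a minor member of the family in the brain even so. Per kilobase of exon, Guca1b was 1.95 ± 0.31% of the summed family level in Gnb5-/- cerebellum, 0.492 ± 0.032% in hippocampus and 1.14 ± 0.661% in cortex. Without the libraries that stood apart it was 1.83 ± 0.0841% in cerebellum and 0.873 ± 0.128% in cortex (5 libraries each). In Gnb5-/- atria and ventricles its share was 6.49 ± 1.66% and 5.81 ± 1.06%.

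**Figure D2:**
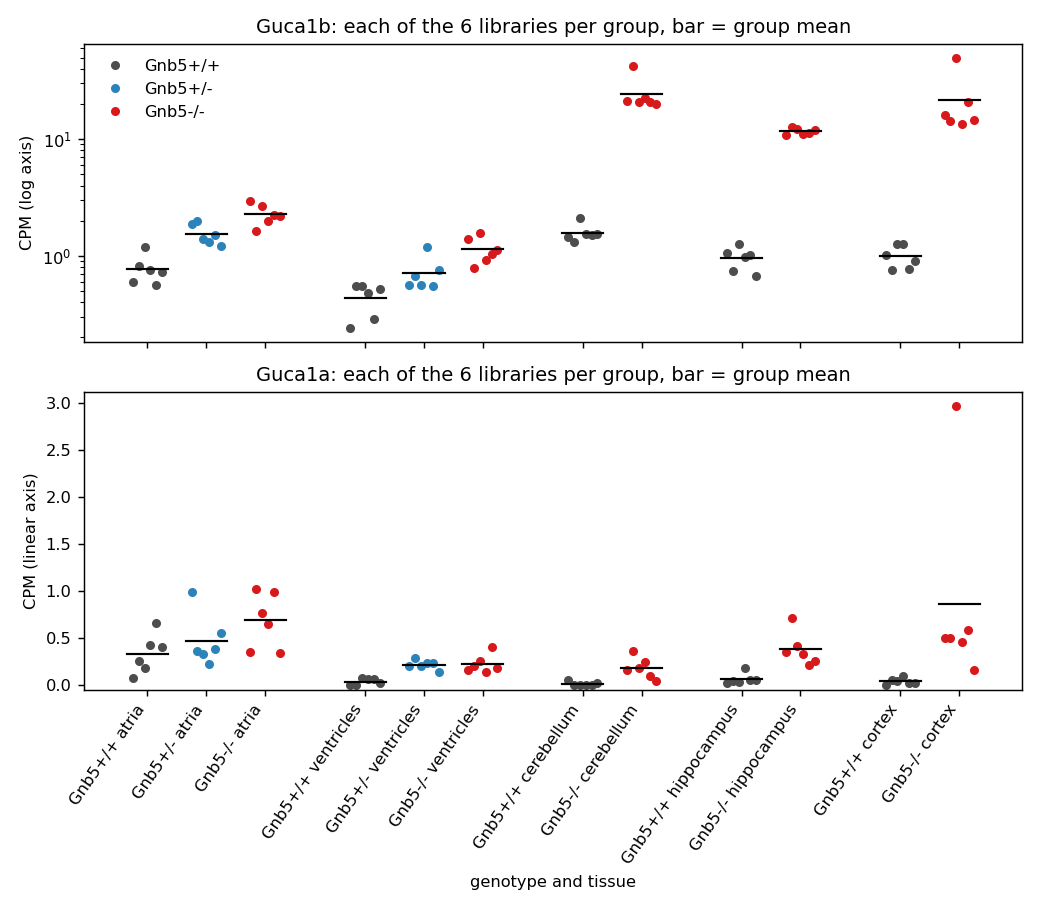
Level in CPM of Guca1b (upper panel, log axis) and Guca1a (lower panel, linear axis) in each of the 72 libraries, by genotype (colour) and tissue, with a bar at the mean of each group of 6. The Gnb5-/- libraries of the 3 brain regions have 10.8 to 50.1 CPM of Guca1b, against 0.672 to 2.12 CPM in the Gnb5+/+ libraries of the same regions.

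The Gnb5+/- hearts were not used in choosing Guca1b. In Gnb5+/- atria the lowest, median and highest libraries had 1.21, 1.45 and 1.99 CPM. All 6 lay above the highest Gnb5+/+ library, and the range reached into that of the Gnb5-/- libraries. The log2 fold change was 1.00 (95% interval 0.56 to 1.43), with an adjusted p of 0.313 in edgeR's quasi-likelihood test, where 0.0124% of the 16181 genes were called, and 0.0275 in DESeq2, where 0.0268% of the genes were called. In Gnb5+/- ventricles the libraries had 0.554, 0.62 and 1.19 CPM, of which the lowest just exceeded the highest Gnb5+/+ library at 0.552. The highest was replicate 4, the ventricle library with the fewest reads without a feature (2.85%). The log2 fold change was 0.70 (0.14 to 1.25), with an adjusted p of 0.961 in edgeR, where 0.0202% of 14866 genes were called, and of 1.0000 in DESeq2 (0.0106% called). A two-sided exact permutation test of log2 CPM gave p = 0.00216 in each tissue, the smallest value that 6 against 6 libraries allow. Of these tests across all genes, only that of DESeq2 in atria passed the threshold. The Gnb5+/- and Gnb5-/- hearts were compared with the same 6 Gnb5+/+ libraries in each tissue, so these results are not independent of those above.

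Guca1a, the paralog next to Guca1b, was the only relative that any of the fits across all genes called in Gnb5-/- mice. Its counts were low and its calls differed between methods. In ventricles the 6 Gnb5-/- libraries held 5 to 12 counts and the Gnb5+/+ libraries 0 to 2. In cerebellum the counts were 2 to 14 against 0 to 2, with 4 of 6 Gnb5+/+ libraries at 0. In hippocampus they were 9 to 34 against 1 to 8, and in cortex 7 to 81 against 0 to 4. The groups did not overlap in ventricles, hippocampus and cortex, and in cerebellum the CPM of the lowest Gnb5-/- library fell inside the Gnb5+/+ range. The share of all genes without such overlap is not given here, so the lack of overlap is a description only.

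Summed over libraries, the level of Guca1a in Gnb5-/- mice was 6.25 times that in Gnb5+/+ mice in ventricles (48 against 7 counts, 95% exact interval 2.81 to 16.4) and 14.8 times in cerebellum (43 against 3 counts, 4.73 to 74.4). It was 5.99 times in hippocampus (102 against 16 counts, 3.52 to 10.9) and 18.3 times in cortex (170 against 10 counts, 9.73 to 39). These intervals cover counting error only. The filter on low counts removed Guca1a from the edgeR fit in all 4 of these tissues. The exact permutation test gave p = 0.00216 in ventricles, hippocampus and cortex and 0.00433 in cerebellum, without adjustment for the number of genes.

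DESeq2, which was run without this filter, called Guca1a in these 4 tissues. In hippocampus the study had reported the rise from the same libraries with DESeq2, so that call repeats a known result. The adjusted p was 0.0308 in ventricles (0.288% of genes called), 0.0411 in cerebellum (0.307%), 0.00132 in hippocampus (0.514%) and 2.92e-05 in cortex (0.141%). edgeR without the filter called it in hippocampus alone. There its log2 fold change was 2.52 with an adjusted p of 0.038 (0.108% of genes called). The adjusted p was 0.0507 in ventricles (0.106%), 0.265 in cerebellum (0.0545%) and 0.0928 in cortex (0.0423%).

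When each of the 12 libraries was left out in turn, DESeq2 still called Guca1a in all 12 fits in hippocampus and in cortex, in 8 of 12 in ventricles and in 3 of 12 in cerebellum. The ventricular call was lost without Gnb5-/- replicate 5 or without Gnb5+/+ replicate 1, 2 or 6. The call in cerebellum was kept only without Gnb5-/- replicate 5 or 6 or Gnb5+/+ replicate 1, and without Gnb5-/- replicate 2, the library that stood apart, DESeq2 gave no adjusted p. The call of edgeR without the filter in hippocampus held in 3 of 12 such fits, namely without Gnb5-/- replicate 5 or 6 or Gnb5+/+ replicate 4. Cortex replicate 3 held 81 of the 170 Guca1a counts of its group, and without it the log2 fold change in edgeR without the filter was 3.35 instead of 4.26, with an adjusted p of 0.0042 instead of 0.0928. That fit called Guca1a in 2 of 12 leave-one-out fits in cortex, without Gnb5-/- replicate 3 or 6, in 1 of 12 in ventricles and in 0 of 12 in cerebellum.

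Atria were the tissue with most Guca1a in Gnb5+/+ mice, and the difference there was smaller. The lowest, median and highest libraries had 0.0712, 0.331 and 0.66 CPM in Gnb5+/+, 0.218, 0.376 and 0.985 CPM in Gnb5+/- and 0.342, 0.707 and 1.02 CPM in Gnb5-/- mice. The ranges overlapped. Between Gnb5-/- and Gnb5+/+ mice it differed by 1.05 on the log2 scale (95% interval 0.13 to 1.97), with an adjusted p of 0.519 in edgeR and 0.42 in DESeq2 (0.62% of genes called). In Gnb5+/- ventricles the 6 libraries held 4 to 8 counts, above the 0 to 2 counts of the Gnb5+/+ libraries, with an adjusted p of 0.461 in DESeq2 and 0.389 in edgeR without the filter.

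The proportion of Guca1a to Guca1b was highest in atria and lowest in cerebellum, in Gnb5+/+ and in Gnb5-/- mice. Within each tissue the proportions of single libraries overlapped between genotypes, as in hippocampus (2.08% to 19% in Gnb5+/+ and 1.89% to 5.69% in Gnb5-/-). A difference between genotypes was not tested. The Gnb5+/+ values outside atria rest on 3 to 16 summed Guca1a counts. Guca1a counts summed to 41% of those of Guca1b in Gnb5+/+ atria and 29.1% in Gnb5-/- atria. In hippocampus the share was 6.78% in Gnb5+/+ and 3.32% in Gnb5-/- mice, in cortex 4.02% and 3.69%, and in cerebellum 0.743% and 0.716%. The ventricles of Gnb5+/+ mice had 7.87%, those of Gnb5+/- mice 29.9% and those of Gnb5-/- mice 18.8%. These are shares of raw counts, and the exons of Guca1a sum to 873 bases and those of Guca1b to 2441. Per kilobase, the mean of Guca1a (0.451 ± 0.283) was above that of Guca1b (0.376 ± 0.115) in Gnb5+/+ atria. The libraries overlapped, with 0.0972 to 0.895 for Guca1a and 0.274 to 0.594 for Guca1b.

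None of the 8 relatives was called by edgeR in any of the 5 comparisons of Gnb5-/- with Gnb5+/+ mice when all libraries were used. Leaving out Gnb5-/- replicate 5 or Gnb5+/+ replicate 4 in hippocampus gave 1 call, that of Guca1a, which passed the filter there through its higher counts in the Gnb5-/- libraries. Beside this count stand the shares of all genes called, which were 0.253% in atria, 0.188% in ventricles, 0.0817% in cerebellum, 0.165% in hippocampus and 0.0557% in cortex. At such rates 8 genes would seldom hold a call. The number of relatives tested was 6, 3, 6, 7 and 7, and the number with an unadjusted p below 0.05 was 1, 0, 2, 1 and 0, while 8.15%, 4.78%, 5.85%, 7.7% and 7.39% of all genes had such a p. DESeq2 called 1 relative, Guca1a, in each of ventricles, cerebellum, hippocampus and cortex and 0 in atria. edgeR without the filter called 0 relatives in atria, where 0.14% of genes were called. The median log2 fold change of the relatives tested was 0.07, 0.03, 0.17, 0.05 and 0.06 in the order of tissues above, beside medians over all genes of -0.01 to 0.01. In Gnb5+/- heart 0 of 6 relatives in atria and 0 of 3 in ventricles were called by edgeR, with 0 at an unadjusted p below 0.05, and DESeq2 also called 0.

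**Figure D3:**
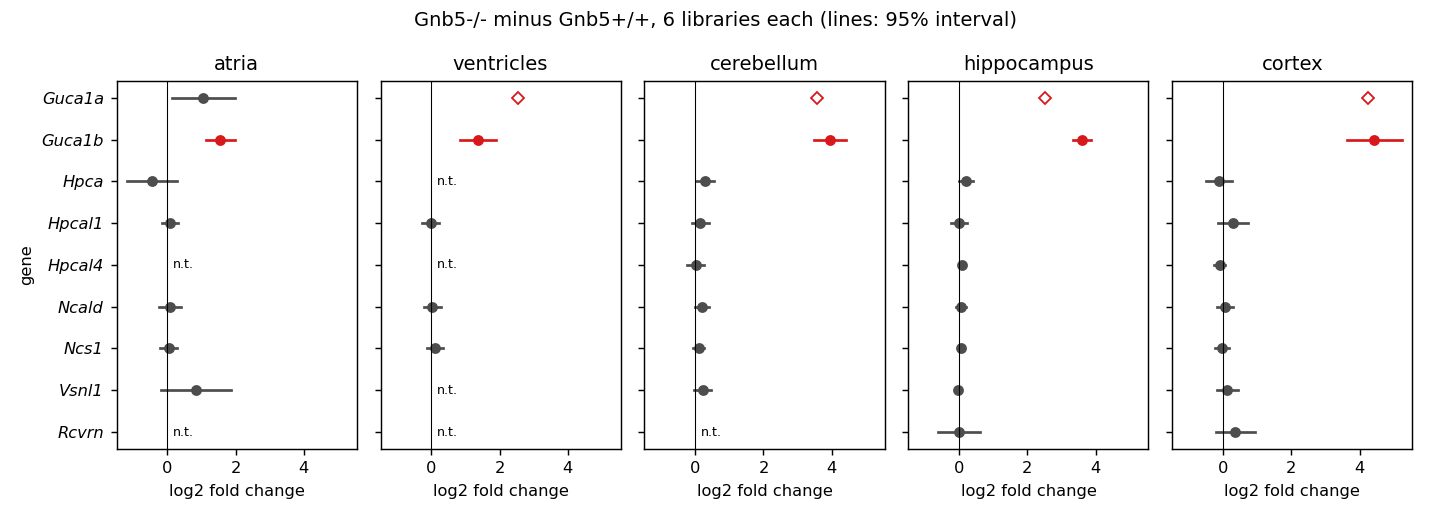
Log2 fold change between Gnb5-/- and Gnb5+/+ mice for the 9 members in 5 tissues, with points for estimates and lines for 95% intervals. Guca1b is in red, open diamonds are Guca1a in the edgeR fit without the filter and have no interval, and n.t. marks genes removed by the filter. Guca1b lies between 1.36 and 4.43, whereas the estimates of the relatives with an interval lie between -0.45 and 1.05.

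In heart the most abundant relatives, Hpcal1, Ncald and Ncs1, differed by less than the spread between replicates. Hpcal1 had 11 ± 1.33 CPM in Gnb5+/+ atria and 11.5 ± 1.34 in Gnb5-/- atria, which is 0.07 on the log2 scale (95% interval -0.17 to 0.30), and in ventricles the levels were 8.14 ± 0.819 and 8 ± 0.85 CPM (-0.02, -0.27 to 0.22). Ncald had 13.2 ± 3.71 and 14 ± 2.01 CPM in atria (0.08, -0.25 to 0.41) and 6.37 ± 0.947 and 6.5 ± 0.314 CPM in ventricles (0.03, -0.22 to 0.27). Ncs1 had 10.5 ± 1.08 and 10.8 ± 2.51 CPM in atria (0.04, -0.21 to 0.29) and 7.31 ± 1.24 and 7.85 ± 1.26 CPM in ventricles (0.10, -0.14 to 0.35). None of these 6 intervals reached beyond 0.41 in either direction.

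Vsnl1 varied widely between the atria of mice of the same genotype. Its lowest, median and highest libraries had 0.641, 1.14 and 5.34 CPM in Gnb5+/+, 1.69, 4.31 and 5.68 CPM in Gnb5+/- and 1.28, 3.98 and 6.35 CPM in Gnb5-/- mice. The Gnb5+/+ group had 4 libraries from 0.641 to 1.15 and 2 at 3.81 and 5.34 CPM, so the ranges overlapped. The log2 fold change was 0.85 (95% interval -0.18 to 1.87, adjusted p = 0.726 in edgeR) in Gnb5-/- and 0.94 (-0.09 to 1.97, adjusted p = 0.723) in Gnb5+/- mice. These intervals were wide enough to hold both 0 and the values of Guca1b in the same comparisons, 1.55 and 1.00. Hpca was near 0.5 CPM in atria of all genotypes, with 0.557 ± 0.124 in Gnb5+/+ and 0.409 ± 0.246 CPM in Gnb5-/- mice (log2 fold change -0.45, -1.17 to 0.27). Hpcal4 was too low in atria for the filter, and the 2 high Gnb5+/+ libraries (2.42 and 1.31 CPM) lay above all Gnb5-/- libraries, of which the highest had 0.59 CPM (two-sided exact permutation p = 0.729).

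Hpca, Hpcal4, Vsnl1 and Rcvrn were also too low to be tested in ventricles, with at most 12 counts in a library. Hpca had 24 counts in the sum of 6 Gnb5+/+ libraries, 12 of them in a single library, 3 in Gnb5+/- and 7 in Gnb5-/- mice. Its normalized level in Gnb5-/- ventricles was 0.266 times that in Gnb5+/+ ventricles (95% exact interval 0.0968 to 0.636, counting error only), and the ranges overlapped (exact permutation p = 0.0952). Vsnl1 had 21 and 18 counts in Gnb5+/+ and Gnb5-/- ventricles, a ratio of 0.781 (0.393 to 1.54), and Hpcal4 had 9 and 4 counts, 0.405 (0.0912 to 1.45). At this depth no difference of Vsnl1 or Hpcal4 was detectable in ventricles.

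In hippocampus the abundant relatives had narrow intervals. Hpcal4 had 1125 ± 27.5 CPM in Gnb5+/+ and 1179 ± 68.1 CPM in Gnb5-/- mice, which differ by 0.07 on the log2 scale (95% interval -0.01 to 0.15). Ncs1 had 420 ± 17.7 and 437 ± 18.8 CPM (0.06, -0.02 to 0.14), and Vsnl1 had 338 ± 12.1 and 326 ± 15.4 CPM (-0.05, -0.13 to 0.03). These 3 intervals end at most 0.15 from 0 on the log2 scale. Hpca had 1017 ± 104 and 1166 ± 169 CPM (0.20, 0.00 to 0.39, adjusted p = 0.646 in edgeR), and 3 of 6 Gnb5-/- libraries lay above the highest Gnb5+/+ library. Ncald (0.05, -0.10 to 0.19), Hpcal1 (0.00, -0.23 to 0.24) and Rcvrn (-0.01, -0.62 to 0.61) were near 0, Rcvrn with a wide interval at 0.545 ± 0.193 and 0.55 ± 0.209 CPM.

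In cerebellum all 6 relatives tested had a log2 fold change above 0, against 50.1% of all genes, and none was called. Hpca had 43.5 ± 5.31 CPM in Gnb5+/+ and 52.7 ± 9.45 CPM in Gnb5-/- mice (0.28, 95% interval 0.02 to 0.54, adjusted p = 0.583 in edgeR). Vsnl1 had 377 ± 17.7 and 438 ± 89.6 CPM (0.22, -0.03 to 0.46), Ncald 208 ± 14.8 and 239 ± 32.2 CPM (0.20, 0.00 to 0.39) and Hpcal1 277 ± 14.7 and 308 ± 61.3 CPM (0.15, -0.09 to 0.39). Hpcal4 (0.01, -0.23 to 0.25) and Ncs1 (0.10, -0.08 to 0.27) differed less. The library that stood apart, Gnb5-/- replicate 2, was the highest of its group for Vsnl1 (615 CPM against 359 to 423), Hpcal1 (427 against 264 to 311) and Ncald (290 against 199 to 255). Without it the log2 fold change was 0.10 for Vsnl1, 0.04 for Hpcal1 and 0.14 for Ncald, while that of Hpca was 0.29, and none was called there, although 62 genes were called in all, against 14 with every library. Rcvrn was too low for the filter, with 49 counts in the sum of the Gnb5+/+ and 38 in that of the Gnb5-/- libraries, a ratio of 0.799 (95% exact interval 0.509 to 1.25, counting error only).

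In cortex the intervals were wider, and replicate 3 of the Gnb5-/- mice lay outside the range of the other 5 for every relative. It had 151 CPM of Hpca against 333 to 366 in the others, 257 CPM of Ncs1 against 345 to 389 and 1040 CPM of Hpcal4 against 1134 to 1264. It was in contrast high for Vsnl1 (694 against 382 to 503) and Ncald (792 against 492 to 597). With all libraries the log2 fold change was -0.12 (95% interval -0.51 to 0.27) for Hpca, -0.10 (-0.26 to 0.06) for Hpcal4, -0.03 (-0.23 to 0.18) for Ncs1, 0.06 (-0.19 to 0.30) for Ncald, 0.12 (-0.18 to 0.42) for Vsnl1 and 0.29 (-0.14 to 0.72) for Hpcal1. Without replicate 3 it was 0.02 for Hpca, -0.07 for Hpcal4, 0.05 for Ncs1, -0.05 for Ncald, -0.02 for Vsnl1 and 0.11 for Hpcal1. The sign of Hpca, Ncs1, Ncald and Vsnl1 thus turned on a single library, and none of the 6 was called with or without it. Rcvrn had 0.502 ± 0.145 CPM in Gnb5+/+ and 0.639 ± 0.187 CPM in Gnb5-/- cortex (0.36, -0.22 to 0.94, adjusted p = 0.496 in edgeR). Without replicate 3 its log2 fold change was 0.50 (0.01 to 0.98, unadjusted p = 0.0451 and adjusted p = 0.775 in edgeR).

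**Figure D4:**
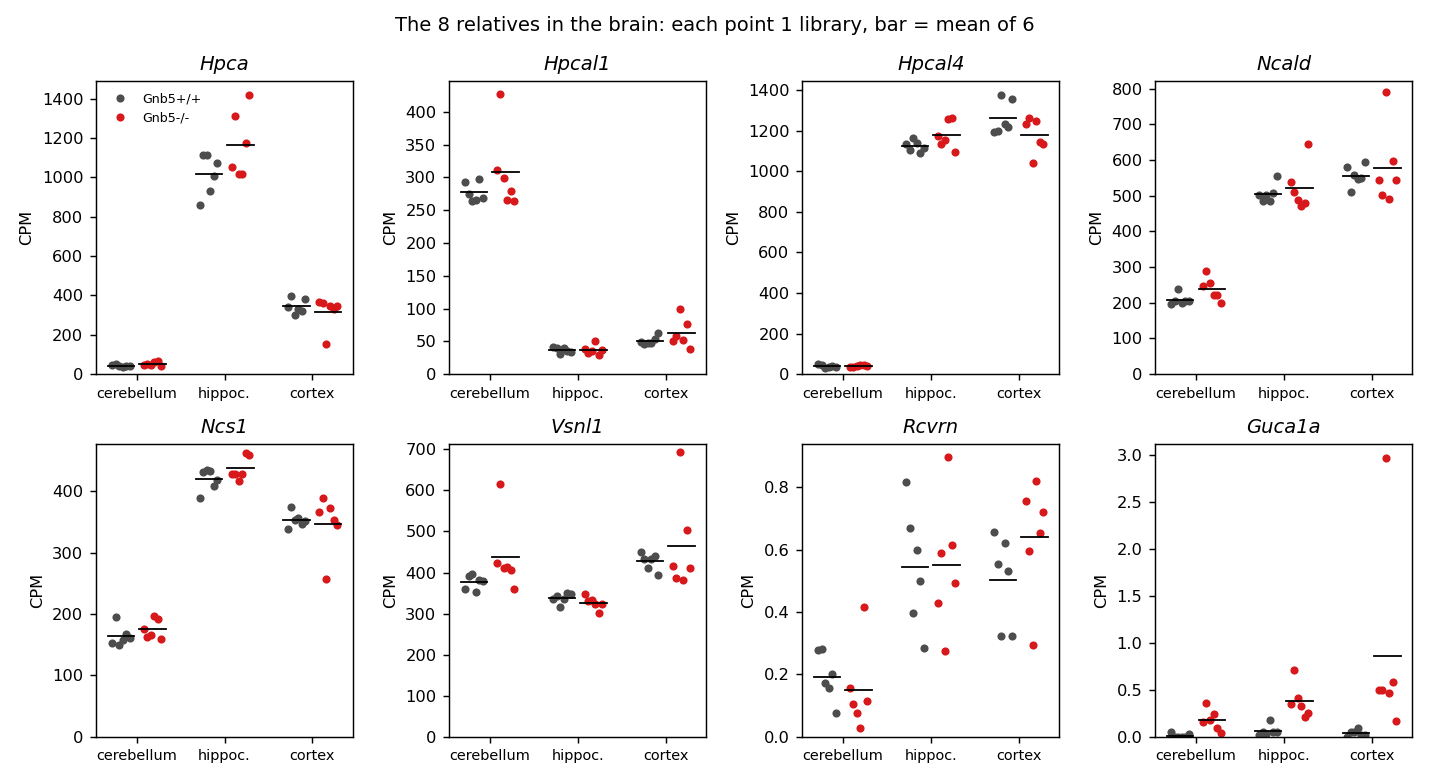
CPM of the 8 relatives in each library of cerebellum, hippocampus and cortex, on linear axes from 0, for Gnb5+/+ (grey) and Gnb5-/- (red) mice with a bar at the mean of each group of 6. The ranges of both genotypes overlap in every panel and region except for Guca1a in hippocampus and cortex, and 1 cortex library stands low for Hpca (151 CPM).

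The difference between genotypes was not shown to depend on the tissue for any relative. In a fit of the 24 atrial and ventricular libraries of both genotypes, with each mouse as a block, edgeR called 0 of 6 relatives, with 1 at an unadjusted p below 0.05, and 0.00622% of 16076 genes. The relative with the small p was Guca1a, whose log2 fold change was 1.57 larger in ventricles than in atria (95% interval 0.35 to 2.79, adjusted p = 0.973). In the fit of the 36 brain libraries 0 of 8 relatives were called, with 0 at an unadjusted p below 0.05, and 0.0155% of 19388 genes. Guca1a, with at most 8 counts in a Gnb5+/+ brain library, passed the filter there through its Gnb5-/- libraries. Its difference between cortex and cerebellum had an interval of -4.23 to 5.22, too wide to decide whether the change depends on the region. Hpca came nearest, with a log2 fold change 0.43 lower in cortex than in cerebellum (difference -0.43, 95% interval -0.81 to -0.05), and an adjusted p of 0.844 for both regional terms together. DESeq2 was not run for these interactions.

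The genes around Guca1b were examined next. The 5 nearest tested genes on each side were Bicral, Tbcc, Ubr2, Trerf1 and Mrps10 before it and Guca1a, AI661453, Taf8, Ccnd3 and Bysl after it, which start from 587 kb before to 214 kb after the start of Guca1b. Their median log2 fold change in Gnb5-/- mice lay between -0.06 and 0.04 in the 5 tissues, and edgeR called 0 of 10 in atria and 0 of 9 in each other tissue, beside the shares of all genes called given above. Mrps10, which encodes a mitochondrial ribosomal protein and starts 16.5 kb before Guca1b on the same strand, had log2 fold changes of -0.03, -0.00, 0.19, -0.02 and 0.24 in atria, ventricles, cerebellum, hippocampus and cortex. AI661453, the next gene after Guca1a, had 0.11, 0.19, -0.32, -0.24 and -0.23. The largest value apart from Guca1a was that of Tbcc, a tubulin folding cofactor, in cortex (0.98, adjusted p = 0.474 in edgeR), which was 0.27 without replicate 3. DESeq2 called only Guca1a among the 10 neighbours, in the 4 tissues named above.

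**Figure D5:**
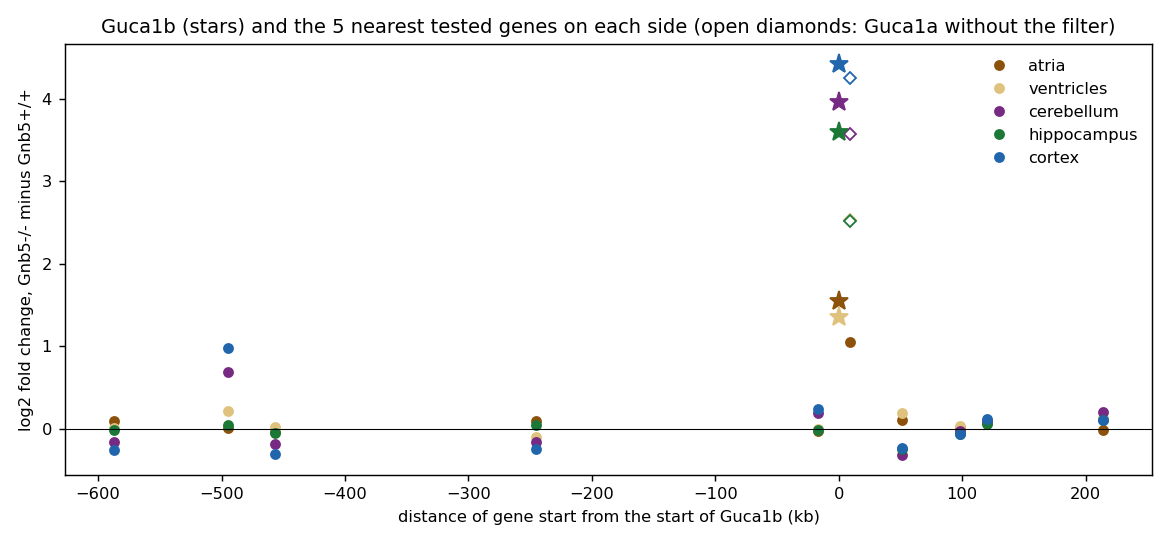
Log2 fold change between Gnb5-/- and Gnb5+/+ mice for Guca1b (stars) and the 5 nearest tested genes on each side (dots), by the distance of the gene start from that of Guca1b in kb, with colours for tissues. Open diamonds are Guca1a in the edgeR fit without the filter, where the ventricle and hippocampus values (2.53 and 2.52) coincide, and all dots other than Guca1a in atria (1.05) lie at 0.98 or less.

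The partners of these proteins and other calcium sensors were looked at through 5 lists, whose counts at an unadjusted p below 0.05 are to be read against 4.78% to 8.15% of all genes in the Gnb5-/- comparisons. Of the 10 guanylate cyclase genes, which include the retinal targets Gucy2e and Gucy2f, the natriuretic peptide receptors Npr1 and Npr2 and the nitric oxide receptor subunits, 5 to 9 were tested per tissue and none was called in Gnb5-/- mice by edgeR, with 0 or 1 at an unadjusted p below 0.05. Gucy1b1, the beta subunit of the nitric oxide receptor and the member of the list with the highest mean over the tissues where it was tested, had 158 ± 10 CPM in Gnb5+/+ and 163 ± 10 CPM in Gnb5-/- hippocampus (log2 fold change 0.05). Gucy2e, named after its values were seen because GCAP proteins act on it in the retina, had 1.86 ± 0.911 and 3.46 ± 1.37 CPM in atria (0.89, adjusted p = 0.508 in edgeR) and 5.44 ± 0.63 and 5.99 ± 0.651 CPM in hippocampus (0.14). In cerebellum and cortex its log2 fold change was -0.04 and -0.09, and 0.12 and 0.03 without the libraries that stood apart. Of 13 other EF-hand sensors, among them Calm2 and the potassium channel interacting proteins, 6 to 11 were tested and none was called, with 0 to 2 at an unadjusted p below 0.05. Calm2 had 1172 ± 43.9 CPM in Gnb5+/+ and 1582 ± 820 CPM in Gnb5-/- cortex (log2 fold change 0.43, adjusted p = 0.474 in edgeR), and its fold change was 0.11 without replicate 3.

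Among 9 genes of binding partners of Ncs1 and its relatives, such as Pi4kb, Ric8a and the potassium channel gene Kcnd2, 6 to 8 were tested and 1 was called, in ventricles, where 0.188% of all genes were called. At an unadjusted p below 0.05 there were 2 of 7 in atria, 1 of 6 in ventricles and 0 in each brain region. Drd2, the dopamine D2 receptor whose desensitization Ncs1 is known to limit, rose in ventricles from 1.94 ± 0.314 to 3.52 ± 0.86 CPM (log2 fold change 0.85, 95% interval 0.49 to 1.21, adjusted p = 0.0398 in edgeR). DESeq2 called it too (adjusted p = 0.00175). In edgeR the call was lost, with adjusted p between 0.0508 and 0.127, when any of 10 of the 12 libraries was left out, and in 3 further fits given in the closing section, while the log2 fold change stayed between 0.75 and 0.95. In the other 4 tissues the log2 fold change of Drd2 was between -0.07 and 0.24. The 2 in atria were Kcnd2 and Kcnd3, the latter named after its values were seen. Kcnd2 had 37.7 ± 7.87 CPM in Gnb5+/+ and 29.2 ± 4.77 CPM in Gnb5-/- atria (-0.37, 95% interval -0.63 to -0.11, adjusted p = 0.385 in edgeR). Kcnd3 had 40.1 ± 6.41 and 31.3 ± 3.71 CPM (-0.36, -0.58 to -0.14, adjusted p = 0.283 in edgeR).

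GCAP2 and recoverin are proteins of photoreceptors, and the pineal gland shares part of that programme, so markers of both cell types were counted in every group. Of 20 photoreceptor genes, 5 to 8 were tested per tissue and none was called by edgeR, with 0 or 1 at an unadjusted p below 0.05 in the Gnb5-/- comparisons. The summed level of the list was 8.27 to 10.7 CPM in Gnb5+/+ and 8.95 to 10.5 CPM in Gnb5-/- hippocampus, and 9.94 to 11.3 and 9.15 to 18.2 CPM in cortex. In cerebellum the sums were 10.8 to 15.1 and 11.1 to 27.1 CPM. The highest sums of Gnb5-/- cortex and cerebellum again came from the 2 libraries that stood apart. In atria the sums were 52.6 to 75.1 and 56.7 to 65.1 CPM, of which Rp1 made up most, and in ventricles 10.5 to 17.8 and 13.9 to 19.2 CPM. Cnga1, Nr2e3 and Gngt1 were at 0 in Gnb5+/+ and Gnb5-/- mice in cerebellum, Cnga1 and Gngt1 in hippocampus, and Crx, Nr2e3 and Gngt1 in both heart tissues. In cortex Crx and Gngt1 were at 0 in Gnb5+/+ mice and had counts in Gnb5-/- mice, where Cnga1 was at 0. The part of these cell types in the results was not tested. The 5 pineal genes summed to 1.47 to 1.95 and 1.19 to 2.35 CPM in hippocampus, and none of the 0 to 2 tested per tissue was called.

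The genes most like each member over the 12 group means of log2 CPM were the last description made. For the brain members the best matches reached a Pearson r of 0.995 or more, as for Ncs1 with Clvs2, Tcerg1l and Henmt1, for Hpca with Agpat4, Shisa7 and Erc2, and for Hpcal1 with Mab21l1, Lurap1 and Atoh7. Neither Guca1b nor Guca1a had a match of that order. The closest gene to Guca1a was Tm2d2 (r = 0.852). The 3 genes closest to Guca1b among 14876 were Gm9008 (r = 0.839), Mfap1b (0.836) and Saysd1 (0.827). The r of Guca1b with the other members ranged from 0.334 (Rcvrn) to 0.433 (Vsnl1), with 0.385 for Guca1a. The 12 means share libraries, mice and the contrast between heart and brain, so these values describe the pattern only.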

How the data were processed

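RNA was sequenced with a stranded TruSeq kit and single reads. As the study's methods and the submitters' processing notes state, the authors trimmed reads with cutadapt 1.8, aligned them to GRCm38 with STAR 2.5.3a and counted them per Ensembl gene with HTSeq 0.9.1. The deposited values are these raw counts, 1 file per library. Rows that name no gene were left out of library sizes (2.85% to 17.0% without a feature and 0.83% to 1.5% ambiguous, beside the counts on genes). Of 53715 identifiers, 53620 matched GENCODE M21, from which symbols, positions and coding sequences were taken. In R 4.3.3, edgeR 4.0.16 (TMM factors, filterByExpr with a minimum of 10 counts, quasi-likelihood test, Benjamini-Hochberg adjustment, threshold 0.05) was fitted for each tissue on genotype over all genes, and CPM were made from the deposited counts with the TMM library sizes of that tissue. Comparisons of tissues had the mouse as a block. DESeq2 1.42.0, other filters, other scaling and leaving out each library were alternatives. For single genes, log2 CPM (prior count 2) entered an exact permutation test with all 924 assignments, two-sided. Exact intervals of summed counts cover counting error only. Each group is 6 mice, so p-values of genotype comparisons within a tissue rest on the spread between mice. Those of fits with the mouse as a block rest on the spread left after mean differences between mice are removed. The fits were tested on simulated counts. The 9 members and all gene lists were chosen with earlier results of these data known. Named were the members, list genes that were called and up to 4 of the most abundant others of a list, the 5 nearest tested neighbours on each side, Gnb5, and the 3 most similar protein-coding genes with a group mean of at least 1 CPM.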

Additional observations from a re-analysis of the deposited data

Results flagged for a closer look

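Each member's 6 values of log2 CPM (prior count 2) in a group were checked for a single library at the high or low end. Such a library was flagged when its gap to its nearest neighbour, as a share of the whole log2 range, exceeded Dixon's critical value. That value was the one for 6 samples at the 95% level. Of 106 sets of values, 16 did so, and chance gives about 5% of sets. The 2 libraries that stood apart account for 7 of them. In Gnb5-/- cortex replicate 3 the share was 0.668 for Guca1b (high), 0.892 for Hpca (low), 0.708 for Ncs1 (low) and 0.677 for Rcvrn (low). In Gnb5-/- cerebellum replicate 2 it was 0.845 for Guca1b, 0.658 for Hpcal1 and 0.696 for Vsnl1, all high.

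In Gnb5+/+ cerebellum replicate 3 was high for Guca1b (0.644) and Ncald (0.759). In Gnb5+/+ hippocampus replicate 4 was high for Guca1a (0.705, with 8 counts) and replicate 6 for Ncald (0.664). For Ncs1 in ventricles, Gnb5-/- replicate 3 (0.731) and Gnb5+/+ replicate 6 (0.725) were high. For Rcvrn the share was 1.000 in Gnb5-/- atria (replicate 5), Gnb5+/+ atria (replicate 4) and Gnb5+/+ ventricles (replicate 4), where the other 5 libraries held no count.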

How the results depend on the processing

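The Guca1b log2 fold change in Gnb5-/- mice ranged, with 1 library left out, from 1.47 to 1.73 in atria, 1.25 to 1.45 in ventricles, 3.73 to 4.06 in cerebellum, 3.52 to 3.69 in hippocampus and 3.99 to 4.53 in cortex. DESeq2 called 1 relative, which is also 1 neighbour of Guca1b, in each of ventricles, cerebellum, hippocampus and cortex, and edgeR without the filter 1 in hippocampus, where leaving out 1 library gave 0 to 1 for both counts. Replicate numbers did not pair the samples: the deviations of same-numbered libraries of a tissue from their group means had r from -0.242 to 0.147 in 30 comparisons, with 1 over 0.1. With the replicate block the counts of relatives and neighbours called stayed at 0, Guca1b had 1.56, 1.39, 3.91, 3.61 and 4.28 in the order of tissues above, and the fold changes near 0 in hippocampus changed sign, to -0.01 for Hpcal1 and 0.00 for Rcvrn. A minimum of 10 counts in every library gave -0.00 for Hpcal1. The Drd2 call in ventricles was lost without the filter (adjusted p = 0.0507), with the replicate block (0.0727) and with Gnb5+/+ and Gnb5-/- libraries alone (0.0823), all in edgeR. The leave-one-out fits of Guca1a by DESeq2 or without the filter, all alternatives for the neighbours, and the values of list genes, neighbours and family shares without the libraries that stood apart, were added after the data were seen. Genes with few counts, such as Guca1a and Rcvrn, are limited by depth.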
